A study of Oryctolagus cuniculus with 10 samples.

Results

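Of the 570218 single nucleotide sites listed for 10 rabbit liver libraries, 509 sites, or 0.0893%, held 2 alternative bases beside the reference base. A site was taken when the base calls of all libraries together contained at least 2 different bases that were not the reference base. The sites were thus chosen by the base calls themselves. No listed site held all 3 possible alternative bases, and the other 569659 listed sites held 1 alternative base. Another 50 sites with 2 alternative bases were left out because the authors list them among the sites with an accepted variant in every library. Liver messenger RNA came from wild-type male New Zealand white rabbits. The squalene diet, given for 4 weeks, held 1% sunflower oil and 0.5% squalene (5 libraries). The control diet held 1% sunflower oil alone for the same time (5 libraries). Ages are not given in the sources used here, and a legend of the study calls the sequenced samples partially pooled, although text and labels describe 5 rabbits per diet. No gene level was used here, so the liver label was not checked against marker genes.

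Most single nucleotide polymorphisms carry a reference base and 1 alternative base, because a second change at the same position is rare. A substitution between the purines A and G or between the pyrimidines C and T is a transition, and every other substitution is a transversion. Each reference base has 1 possible transition and a pair of transversions, so a site with 2 alternative bases holds at most 1 transition. In RNA, a base can be called only where the gene is transcribed and the reads reach that position. The table marks a position without reads by an asterisk, a single alternative base by its letter and 2 alternative bases in the same library by a comma. None of the 358 comma-joined calls included the reference base, so a library with reads of both the reference and another base cannot be told apart from one with the other base alone. The number of reads behind a call is unknown, and no counting interval is given for single sites.

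Libraries are named by diet and by the number in their deposited column name, which matches no replicate number of the labels. Total reads per library, deposited under the same numbers, were not used here, so the part of sequencing depth in the values was not tested. Squalene libraries 12 and 16 stood apart from the other pairs. They held the same call at 238 of the 343 two-alternative sites read in both, which is 69.4%. Over the 45 pairs of libraries the median was 37.0%, and the next highest values were 53.2% for squalene library 16 and control library 14, 50.8% for squalene library 12 and control library 14, and 50.5% for squalene library 8 and control library 6. Over all listed sites, squalene libraries 12 and 16 agreed at 79.7% of the sites read in both, against 59.0% to 70.1% for the other 44 pairs. The highest of these joined a squalene and a control library: 8 and 6 (70.1%), 16 and 14 (69.9%), 12 and 14 (69.7%), and 20 and 18 (67.5%). The next pair, squalene libraries 24 and 8, agreed at 64.3%. Whether libraries of any close pair came from the same or related rabbits is not known. The 5 squalene libraries, and the 10 libraries together, may therefore not be independent. Squalene libraries 12 and 16 were kept as separate libraries, and the comparisons between diets are also given with their values averaged as 1 library.

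Each site had a base in at least 2 libraries, with a median of 9, and 238 of the 509 sites were read in all 10. Among the 553206 other listed sites, those of the authors' accepted list left out, the median was 6 libraries, and 23.2% were read in all 10. A site needs an alternative base in at least 2 libraries, or a comma-joined call, to meet the rule, and the part of the rule in this difference was not tested. An alternative base was held by a median of 5 libraries at the 2-alternative sites and of 1 library at the other sites. At 48 sites no library was called as reference.

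The less frequent of the 2 alternative bases was found in a single library at 317 sites (62.3%). These sites lie just inside the rule, and 106 of them held each alternative base in 1 library only. At 192 sites (37.7%) both alternative bases were held by at least 2 libraries. The less frequent base was held by 2 libraries at 89 sites, by 3 at 56, by 4 at 28 and by 5 to 8 libraries at the remaining 19. At 138 sites the alternative bases were held by the same number of libraries.

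**Figure D1:**
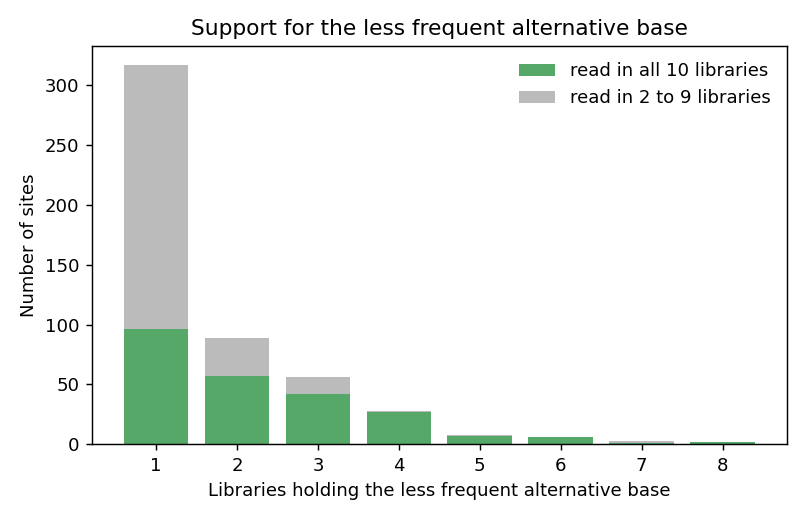
Number of sites with 2 alternative bases (vertical axis) by the number of libraries that held the less frequent alternative base (horizontal axis), with sites read in all 10 libraries in green and the others in grey. At 96 of the 317 sites in the first bar all 10 libraries were read, and at 57 of the 89 in the second.

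The 6 sites with the widest support for the less frequent base show what such a site looks like across libraries. Substitutions are written as the reference base, the position counted from 1 at the start of the sequence in assembly OryCun2.0, and the alternative base. On sequence NC_013673.1, G22580594A was held by 4 of 5 squalene and 5 of 5 control libraries, and G22580594C by 5 squalene and 3 control libraries. Both bases were called together in 7 of the 10 libraries, and no library was called as reference. On scaffold NW_003159386.1, C173263A was held by 5 squalene and 3 control libraries and C173263T by 3 squalene and 5 control libraries. On NC_013675.1, A63639486C was held by 3 squalene and 4 control libraries and A63639486T by 5 squalene and 2 control libraries. All 3 of these sites were therefore without a reference call in the 10 libraries.
The scaffold sites C9657G and C9657A of NW_003161163.1 and G3103C and G3103T of NW_003162278.1 were read in 9 libraries each, control library 6 having no reads. C9657G was held by 4 squalene and 4 control libraries, and C9657A by 4 squalene and 3 control libraries. G3103C was held by all 5 squalene and 4 control libraries that were read. G3103T was held by 4 squalene and 3 control libraries, in each case in a comma-joined call with the other base. On NC_013672.1, T43488060A was held by 4 squalene and 3 control libraries and T43488060C by 4 squalene and 2 control libraries, with comma-joined calls in 3 squalene libraries and in no control library.

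A comma-joined call, with both alternative bases in the same library, was present at 129 of the 509 sites, which held 235 such calls. The other 123 comma-joined calls of the table fell on the 50 sites left out. There was 1 such call at 75 sites, and at most 7 at any site. At 39 sites the less frequent base was seen in comma-joined calls alone. Comma-joined calls were present in libraries of both diets at 43 sites, in squalene libraries only at 40 and in control libraries only at 46. One site rested on a single library: on NC_013673.1, G35462506A and G35462506T were called together in control library 10, and the other 6 libraries read were called as reference. It was named after its values were seen.

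The base combinations were distributed over all 12 possible kinds. Reference A was found at 137 sites (26.9%), reference C at 136 (26.7%), reference G at 108 (21.2%) and reference T at 128 (25.1%). At the other listed sites these shares were 26.1% for A, 23.8% for C, 23.99% for G and 26.1% for T. Reference C with G and T was the most frequent combination, at 58 sites, followed by reference T with C and G at 57. Reference T with A and G was the least frequent, at 27 sites.
For reference A, 42 sites held C and G, 45 held C and T and 50 held G and T. For reference C, 36 sites held A and G and 42 held A and T. Reference G was joined by A and C at 38 sites, by A and T at 35 and by C and T at 35. Reference T was joined by A and C at 44 sites.
Because a gene can lie on either strand, each combination has a complement. Reference C with G and T, at 58 sites, has as its complement reference G with A and C, at 38. Reference A with C and T, at 45 sites, stood against 27 sites of reference T with A and G, and reference A with C and G, at 42, against 57 sites of reference T with C and G. The other 3 pairs were closer, at 50 and 44, 42 and 35, and 36 and 35 sites. These counts are descriptive, since the base calls chose the sites.

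A transition and a transversion were joined at 366 sites (71.9%), and both alternative bases were transversions at 143 sites (28.1%). Among the transition-holding sites, 258 had 1 base in more libraries than the other, and this base was the transition at 128 of them (49.6%). Of all alternative bases called at the 2-alternative sites, transitions made up 32.01% to 40.2% per library. At the other listed sites, transitions made up 73.3% to 76.0% per library. The rule admits at most 1 transition per site, so the lower share at the 2-alternative sites is in part fixed by it.

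The 509 sites were distributed over 139 of the 1714 sequences that hold listed sites, and 83 of the 139 sequences held a single one. Chromosome-level sequences carried 333 sites, or 0.0794% of their listed sites, and unplaced scaffolds carried 176, or 0.117%. The nuclear chromosomes ranged from 0.0326% to 0.176%, with a median of 0.0822%. By number, NC_013669.1 led with 30 sites among 35528 listed ones, followed by NC_013670.1 with 27 of 29541, NC_013677.1 with 26 of 23372, NC_013680.1 with 25 of 29916 and NC_013681.1 with 23 of 39235.
Comma-joined calls were present at 13 of the 26 sites of NC_013677.1 and at 2 of the 30 sites of NC_013669.1. Among sequences with at least 100 listed sites, the highest shares belonged to small scaffolds. NW_003159847.1 held 2 of 122 (1.64%), NW_003160191.1 and NW_003160240.1 held 2 of 132 each (1.52%), NW_003159740.1 held 2 of 179 (1.12%) and NW_003159387.1 held 1 of 100. With 1 or 2 sites each, these shares are imprecise.

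**Figure D2:**
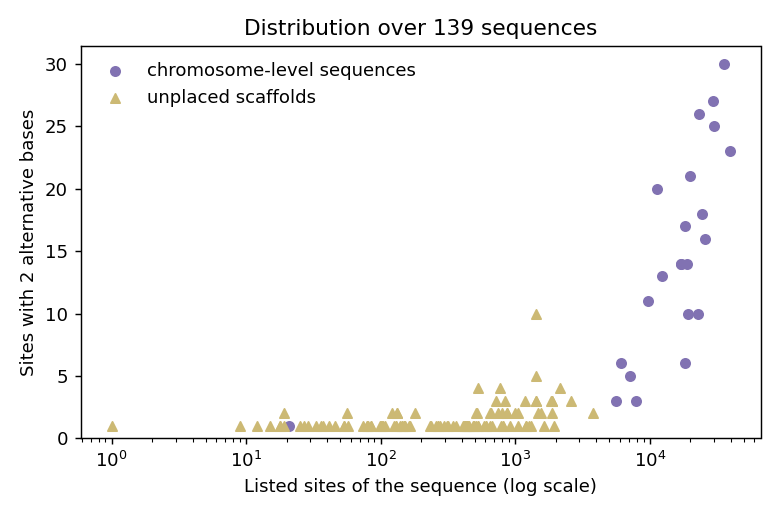
Sites with 2 alternative bases (vertical axis) against all listed sites of the same sequence (horizontal axis, log scale) for the 139 sequences with such sites. The chromosome-level sequences with the most listed sites hold up to 30, and most scaffolds hold 1 or 2. The chromosome-level point at 21 listed sites is the mitochondrial genome.

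Of the 366 windows of 1000000 bases that held such sites, 277 held 1. The fullest windows were named after their values were seen. On NC_013673.1, the chromosome with the highest share, 14 of its 20 sites lay between positions 22352801 and 22580594, in a window with 1869 listed sites. Scaffold NW_003159415.1 held 10 sites among 1278 listed ones in 1 window, between 371422 and 855712. At these 10 sites, squalene libraries 12 and 16 were called as reference wherever they were read. Over all 2-alternative sites read, library 12 was called as reference at 165 of 423 and library 16 at 181 of 381. The 10 sites share a scaffold and the 2 libraries share many calls, so these are not separate observations.
The mitochondrial genome, NC_001913.1, had 21 listed sites and 1 with 2 alternative bases. A11582T was called in squalene libraries 12, 16 and 20 and in control libraries 18 and 21, A11582G was called in control library 14 only, and the remaining 4 libraries were called as reference. This site was also named after its values were seen.

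The sites lay close to other listed sites. The median distance to the nearest listed site was 24 bases for the 2-alternative sites and 51 bases for the other sites. Another listed site lay within 5 bases of 18.5% of the 2-alternative sites and of 10.4% of the other sites, and within 100 bases of 85.5% of the 2-alternative sites and 63.4% of the other sites. The 2-alternative sites were also read in more libraries, and the part of reading in this spacing was not tested. Only 32 of the 509 sites lay in the 14 runs in which successive 2-alternative sites were at most 1000 bases apart, and 2 runs held 4 sites each.

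**Figure D3:**
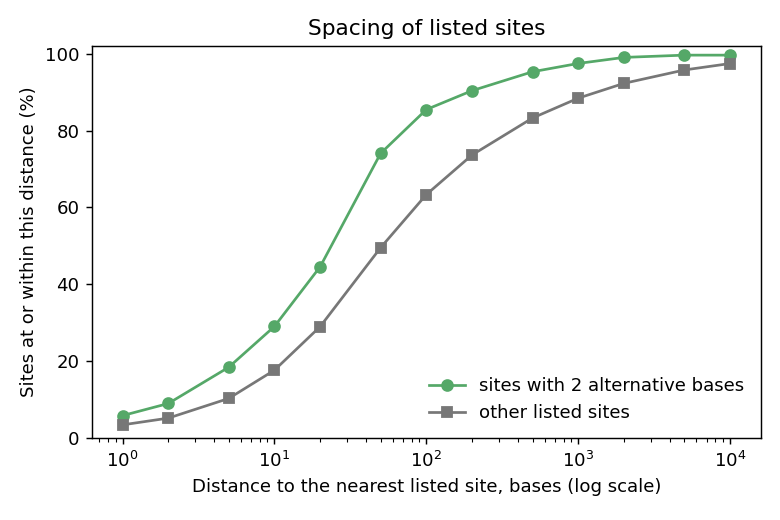
Cumulative share of sites (vertical axis, percent) whose nearest listed site lies at or within a given distance in bases (horizontal axis, log scale), for sites with 2 alternative bases (green circles) and other listed sites (grey squares). At 50 bases, 74.1% of the 2-alternative sites and 49.5% of the other sites have such a neighbour.

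Neighbouring sites at times grouped the 10 libraries in the same way, meaning that libraries that shared a call at one site shared a call at the other. This was so for 2 of the 20 pairs of fully read sites within 5000 bases, 3 of 46 pairs more than 5000 and at most 100000 bases apart, and 1 of 54 pairs beyond that and at most 1000000 bases apart. For sites on different sequences it was so for 15 of 27407 pairs (0.0547%). Pairs share sites and libraries, so these counts are a description.

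Only genes with a listed splicing event could be placed on the coordinates of the files. The deposited splicing tables give exons for 46 events in 39 genes, and 3 of the 509 sites lay within such an event. They were named for that reason, after their values were seen. On scaffold NW_003159391.1, position 817168 lies in the first exon, from 816713, of the alternative 5′ splice event of WBSCR27 (gene ID 100344524, plus strand), a gene of the Williams-Beuren syndrome region. Position 818244 lies in the intron that follows. G817168C was called in squalene libraries 12, 16, 20 and 24 and in 4 control libraries, and G817168A in control libraries 10 and 6. A818244T and A818244C were called in exactly the same libraries. Squalene library 8 was called as reference at both sites, and control library 10 held both alternative bases at both.
On NC_013684.1, position 65464636 lies in the retained intron of FCMR (gene ID 100353452, plus strand), the Fc receptor for IgM, within the retained-intron transcript stretch, flanking exons included, from 65464371 to 65465324. G65464636A was held by all 5 squalene libraries and by control libraries 10 and 21. G65464636C was held by squalene library 8 and by control libraries 14, 18 and 6. No library was called as reference, so this site could not separate the diets by the presence of an alternative base.

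The comparison of the diets asked whether squalene was accompanied by other calls at these sites. Per library, 423, 381, 434, 430 and 435 of the 509 sites were read in squalene libraries 12, 16, 20, 24 and 8. In control libraries 10, 14, 18, 21 and 6, 432, 442, 403, 450 and 411 were read. Squalene library 16 was the lowest, and the diets overlapped.
The sites read were 82.6% ± 4.45 (SD, n = 5) on squalene and 84.0% ± 3.94 (SD, n = 5) on control. The difference of -1.38 percentage points lay within the spread between libraries (two-sided exact permutation test, p = 0.659, adjusted p = 0.698 over 5 comparisons). Without squalene library 16 it was 0.57 percentage points, and with squalene libraries 12 and 16 averaged as 1 it was -0.46. At the other listed sites, 55.4% ± 4.41 were read on squalene and 58.0% ± 3.87 on control.

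An alternative base was called at 258, 200, 279, 253 and 273 of the read sites in squalene libraries 12, 16, 20, 24 and 8. Control libraries 10, 14, 18, 21 and 6 had 255, 283, 258, 279 and 260. All libraries but squalene library 16 lay between 253 and 283.
As a share of the sites read, alternative bases were called at 59.9% ± 4.598 (SD, n = 5) on squalene and 62.5% ± 2.09 (SD, n = 5) on control. The difference was -2.59 percentage points (two-sided exact permutation test, p = 0.310, adjusted p = 0.698). Without squalene library 16 it was -0.75, and with squalene libraries 12 and 16 averaged as 1 it was -1.81. The other listed sites had 40.5% ± 1.76 on squalene and 42.5% ± 2.03 on control, a difference of -1.996.

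Comma-joined calls numbered 23, 18, 26, 29 and 23 in squalene libraries 12, 16, 20, 24 and 8, and 30, 19, 22, 24 and 21 in control libraries 10, 14, 18, 21 and 6. They made up 5.64% ± 0.766 (SD, n = 5) of the read sites on squalene and 5.43% ± 0.960 (SD, n = 5) on control, a difference of 0.21 percentage points (two-sided exact permutation test, p = 0.698, adjusted p = 0.698). The sign of this difference turned without squalene library 24, at -0.0690, and without control library 14, at -0.0748. With squalene libraries 12 and 16 averaged it was 0.35.
Alternative bases found in 1 library only numbered 34, 20, 46, 53 and 49 in squalene libraries 12, 16, 20, 24 and 8, and 48, 43, 46, 45 and 39 in control libraries 10, 14, 18, 21 and 6. The means were 40.4 ± 13.4 on squalene and 44.2 ± 3.42 on control (SD, n = 5 each), with a difference of -3.80 (two-sided exact permutation test, p = 0.643, adjusted p = 0.698). The lowest values belonged to squalene libraries 12 and 16, which share many of their calls. Without squalene library 16 the difference was 1.30, and with squalene libraries 12 and 16 averaged it was -0.45. Bases were not counted anew for these values, so a base held only by squalene libraries 12 and 16 was still not counted.
Transitions were 36.3% ± 2.97 of the alternative bases called on squalene and 34.6% ± 2.57 on control (SD, n = 5 each), and differed by 1.75 percentage points (two-sided exact permutation test, p = 0.325, adjusted p = 0.698). With squalene libraries 12 and 16 averaged the difference was 2.41. At the other listed sites, transitions were 75.2% ± 1.083 on squalene and 75.8% ± 0.268 on control, a difference of -0.56. None of the 5 differences passed the test, whose smallest possible p is 0.00794.

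**Figure D4:**
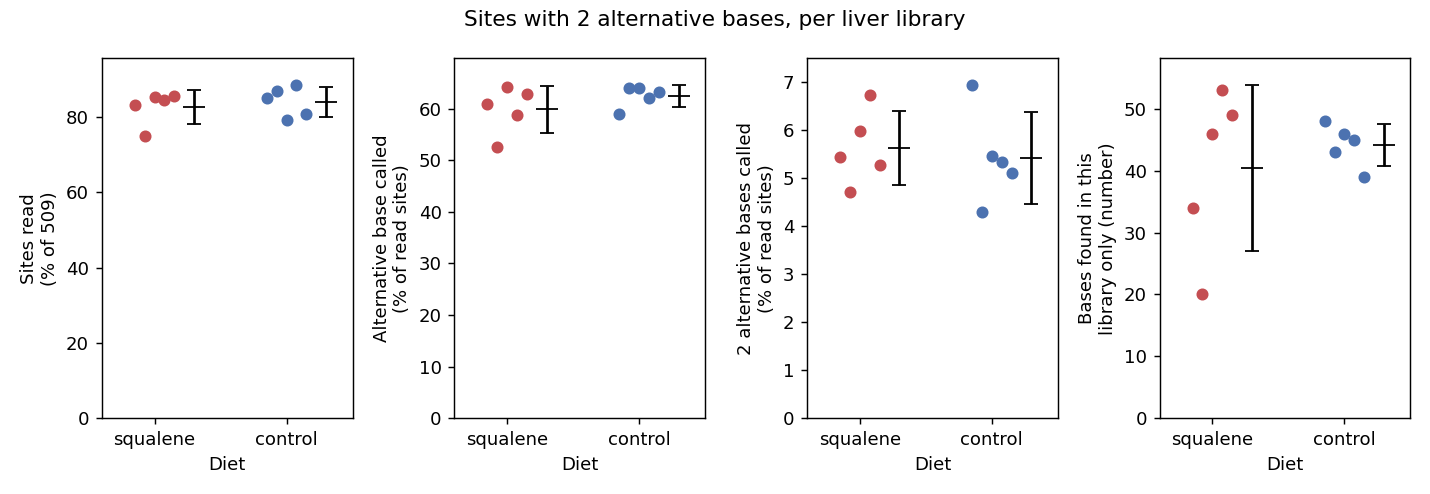
Values of the 10 liver libraries by diet, squalene in red and control in blue, for the sites read (percent of 509), the read sites with an alternative base (percent), the read sites with 2 alternative bases in the same library (percent) and the number of alternative bases found in that library only. Points are libraries, and bars give mean ± SD (n = 5). The diets overlap in every panel, and squalene library 16 is lowest of its diet in all 4.

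Across all sites, 371 had 1 alternative base in fewer libraries than the other. The less frequent base was present in squalene libraries only at 111 of these sites, in control libraries only at 134, and in libraries of both diets at 126. At 211 of these sites it was held by 1 library, so it could be on 1 diet only. Of the 160 such sites at which it was held by at least 2 libraries, it was present in squalene libraries only at 14, in control libraries only at 20 and on both diets at 126. At 101 of all 509 sites, 1 alternative base was held only by squalene libraries and the other only by control libraries. At 69 of these 101, each base was held by 1 library, so neither could be on both diets. The other listed sites hold 1 alternative base and give no share to compare with, and no expected share was computed.

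Site by site, libraries with an alternative base were compared between the diets with Fisher's exact test at the 145208 listed sites read in all 10 libraries, of which 238 had 2 alternative bases. The sites tested include the 16503 sites of the authors' accepted list, all of which were read in all 10 libraries and held an alternative base in all 5 libraries of each diet. These could not differ between the diets, so shares are also given for the 128467 other listed sites without them, a set added after seeing the data. After Benjamini-Hochberg adjustment of the Fisher's exact test, 0 of the 238 sites and 0 of the 145208 sites tested (0.0%) passed the threshold of 0.05, and the smallest adjusted p was 1. The smallest p that Fisher's exact test allows for 5 against 5 libraries is 0.00794, reached at 54 of the 145208 sites. Many more sites at that p would be needed for any to pass. The adjusted test could therefore not decide whether the diets differed at a site. At an unadjusted p under 0.05 there were 3 of the 238 sites (1.26%), against 0.635% of all sites tested and 0.715% of the other listed sites. The site with more squalene libraries made up 0.42% of the 238, against 0.188% of all sites tested and 0.212% of the other listed sites, and the 2 with more control libraries 0.84%, against 0.447% of all sites tested and 0.504% of the other listed sites. An unadjusted p under 0.05 needs an alternative base in 4 against 0, 5 against 0 or 5 against 1 libraries. The median number of libraries with an alternative base was 5 at all 2-alternative sites and 1 at the other listed sites. These medians include sites that were not read in all 10 libraries. How many of the fully read sites of each set could reach such a p was not counted, and the part of this in the shares was not tested. At no 2-alternative site were all 5 libraries of a diet set against none of the other, while 0.0372% of all sites tested and 0.0420% of the other listed sites had that pattern.
More squalene than control libraries held an alternative base at 79 of the 238 sites (33.2%), against 30.9% of all sites tested and 34.8% of the other listed sites. More control libraries held one at 89 sites (37.4%), against 36.1% of all sites tested and 40.7% of the other listed sites. The numbers were equal at 70 sites (29.4%), against 33.1% of all sites tested and 24.5% of the other listed sites. Each of these 3 shares lay between those of the 2 sets, so whether it was above or below the rest of the table depended on the sites of the accepted list.

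**Figure D5:**
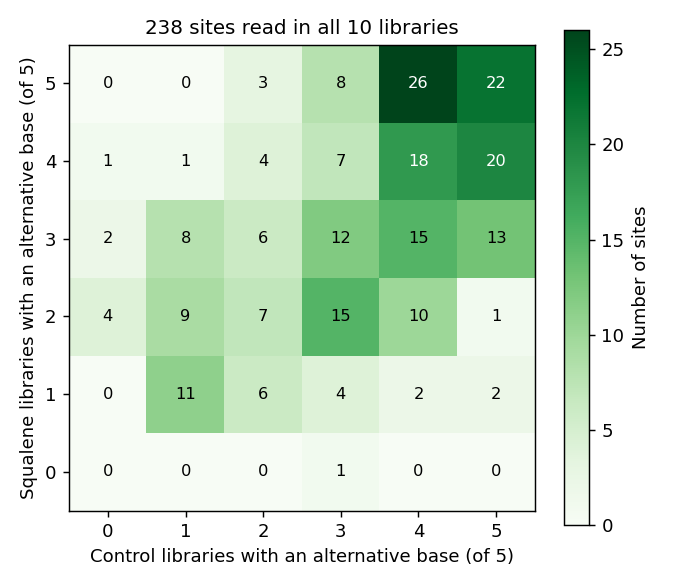
Number of sites with 2 alternative bases by the number of squalene libraries (vertical axis) and control libraries (horizontal axis) that held an alternative base, for the 238 sites read in all 10 libraries. The fullest cell, with 26 sites, is at 5 squalene and 4 control libraries, and the corners at 5 against 0 are empty.

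The site with more squalene libraries at an unadjusted p under 0.05 lay on NC_013683.1. G93446563C was called in squalene libraries 12, 16 and 24 and G93446563A in squalene library 8, while squalene library 20 and all 5 control libraries were called as reference (Fisher's exact test, p = 0.0476, adjusted p = 1). Of these 4 libraries, 12 and 16 are the pair with the closest calls.
The other 2 sites had more control libraries and lay 220088 bases apart on NC_013674.1. C18395634G was called in squalene library 20 and in control libraries 10, 14, 18 and 21, and C18395634T in control library 6, while the other 4 squalene libraries were called as reference (Fisher's exact test, p = 0.0476, adjusted p = 1). C18615722A and C18615722T were called in the same libraries as C18395634G and C18395634T, so the 2 sites repeat a single pattern. For the less frequent base alone, none of the 238 sites had an unadjusted p under 0.05. This base was held by 1, 2 or 3 libraries at 96, 57 and 42 of these sites, too few for such a p. The absence was therefore fixed in advance at most of the sites.
The next 5 sites in the direction of squalene each had an exact p of 0.167. C22476941A was held by 3 squalene and 2 control libraries and C22476941T by 2 squalene libraries and no control library, on NC_013680.1. On NC_013687.1, C12520007G and T12537105A were each held by 4 squalene and 2 control libraries, and C12520007A and T12537105C by 3 squalene and 1 control library, in the same libraries at both sites. On scaffold NW_003159336.1, C1300513G was held by 2 squalene libraries and C1300513T by 1, and on NW_003159772.1 the same was true of C115570G and C115570T, with no control library at either site.
In the direction of control, T97189592C and T97189592G on NC_013677.1 were held by 2 control libraries each, together in control library 10, and by no squalene library (exact p = 0.167). On NW_003159415.1, G851157A was held by 1 squalene and 5 control libraries and G851157T by 2 squalene and 2 control libraries (exact p = 0.167). G23040007A, on NC_013680.1, was held by 1 squalene and 2 control libraries and G23040007C by 2 control libraries (exact p = 0.206). T37266975C, on NC_013684.1, was held by 1 squalene and 3 control libraries and T37266975A by 1 control library (exact p = 0.206).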

How the data were processed

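The members and the lists were chosen with earlier results of these data known. Per the paper's methods, the authors filtered the reads, aligned them to assembly OryCun2.0 by HISAT2, called variants in each sample by GATK and filtered out unreliable sites. Tool versions are not given in the sources used here. The deposited site table gives a base letter per library, not a count. The font colours by which the authors mark accepted calls are lost in its text form, so accepted and rejected calls are both included. Both bases of a comma-joined call were counted.

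Columns were assigned to a diet by their names. The deposited read totals were not used, so sequencing depth was not examined. The deposited splicing tables served only for exon positions, with starts counted from 0, and the deposited table of the gene comparison only for gene symbols. Its fold changes and p-values, the authors' own, were not used. The gene lists prepared could not be applied, since the sites are placed on chromosomes and scaffolds and not on genes. Sequence names are RefSeq's, NC for chromosomes and the mitochondrial genome and NW for unplaced scaffolds.

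Diets were compared over libraries with two-sided exact permutation tests (252 splits), adjusted over 5 comparisons. Fisher's exact test was run on the whole table and Benjamini-Hochberg adjusted over 145208 sites. Text and labels describe 5 rabbits per diet, but a legend calls the samples partially pooled and some libraries had close calls. The p-values therefore measure only the spread between libraries. The sites named are the 6 in each direction with the smallest Fisher p, the 6 with the widest support for the less frequent base, and the 5 sequences with the most sites and the 5 with the highest share. Membership, tests and adjustment were tested on simulated data. Python 3.11.15, numpy 2.4.6, scipy 1.17.1, pandas 2.3.3 and matplotlib 3.10.9 were used.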

Additional observations from a re-analysis of the deposited data

Results flagged for a closer look

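Of the 10 groups of 5 libraries examined, 1 held a library far from the others, and chance flags about 1 in 20 groups. Squalene library 16 had a base at 74.9% of the 2-alternative sites, while the other 4 squalene libraries had a base at 83.1% to 85.5%. At the other listed sites the same library had a base at 47.8%, against 55.5% to 59.1% in the other squalene libraries.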

How the results depend on the processing

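The 509 sites became 238 when only sites read in all 10 libraries were taken and 192 when each alternative base had to be held by at least 2 libraries, and they numbered 456 to 489 with a library left out. Of the 5 comparisons between the diets, none passed the test in any setting tried. With a library left out, these differences were still taken over the 509 sites, with the values of the remaining libraries unchanged. The difference in bases found in 1 library only turned to 1.6 at sites read in all libraries and ranged from -6.95 to 1.30 with a library left out, positive without squalene library 16. The difference in comma-joined calls turned to -0.25 percentage points with the authors' accepted sites kept in and to -0.35 without sites that have a listed neighbour within 5 bases, and it ranged from -0.0748 to 0.587 with a library left out. The difference in sites read ranged from -2.58 to 0.57, positive without squalene library 16. Alternative calls ranged from -3.70 to -0.75 and transitions from 0.78 to 2.62 with a library left out. No site passed the adjusted p in any setting, and so few libraries left little room for one to pass. Unadjusted, the 3 sites became 5 of 338 (1.48%, against 0.825% of all sites tested) with at least 4 libraries of each diet. For the less frequent base alone they became 0 of 238, but at most sites too few libraries held this base for such a p. The share of all sites tested in that setting, 0.633%, is an unlike measure, since it counts the only alternative base of the other listed sites. With a library left out, 3 to 9 sites had an unadjusted p under 0.05. They were 7 of 245 (2.86%) without squalene library 12 and 7 of 246 (2.85%) without squalene library 24 or control library 14. Without control library 18 they were 9 of 249 (3.61%). In these settings 1.01%, 1.40%, 1.67% and 1.65% of all sites tested, the authors' accepted sites included, passed. Without squalene library 20 or 8, or control library 21 or 6, the share was below that of all sites tested. With a library left out, fewer libraries with an alternative base can be enough for an unadjusted p under 0.05. At position 1300513 of NW_003159336.1, with 3 squalene libraries against 0 control libraries, Fisher's exact p went from 0.167 to 0.0476 without squalene library 16. The part of this in the changes was not tested. Averaging squalene libraries 12 and 16 was chosen after seeing the data and turned no difference. No paired analysis was possible because the numbers in the column names match no replicate number of the labels. Reads behind each call limit all of these values and are unknown.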
